A study of Mus musculus with 12 samples.

Results

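The genes examined here are those of the gap junction channels of the mouse epidermis, the connexins Gja1, Gjb2, Gjb5 and Gjb6, together with the pannexins Panx1 and Panx3, which build channels of a similar form. They were taken from the table by gene symbol, and no value entered that rule. Of the 6 symbols, 5 were among the 14533 genes of the count table, and Panx3 was not analysed here. RNA was sequenced from scrapings of dorsal skin of 12 untreated C57BL/6 mice, 6 WT and 6 Pparg-/-epi (KO), aged 8 to 13 weeks. Every mouse carried a Pparg gene flanked by lox sites on both alleles. WT mice (replicates 1 to 6, of which 3 were female) had no Cre, and KO mice (replicates 7 to 12, of which 4 were female) had Cre under the cytokeratin 14 promoter, which is active in keratinocytes of the epidermis and its appendages. The scraping went down to the subepidermal vessels, so that hair follicles and superficial dermis may be part of a sample, and cells that do not express the promoter keep Pparg. The question was whether transcripts of these channel genes differed between the genotypes.

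Connexins assemble as hexamers in the plasma membrane, and hexamers of neighbouring cells dock to form channels that pass ions and small metabolites between keratinocytes. The products of Gja1 and of the Gjb genes differ in the layers where they lie, and inherited variants of several of them cause skin disease, hearing loss or both. Gjb2 and Gjb6 are usually low in the epidermis between follicles and are known to rise in hyperproliferative and wounded epidermis. Panx1 forms channels in the membrane of a single cell, through which ATP leaves.

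Total counts ran from 10120840 to 16947632 in WT mice and from 11272135 to 18851255 in KO mice, and RNA integrity numbers (RIN) from 5.7 to 8.6. All 5 basal and all 5 spinous keratinocyte markers were detected in every mouse, as the epidermal label requires. Counts for Pparg as a whole gene did not separate the genotypes (0.533 to 14.3 CPM, counts scaled to the size of the library, in WT mice and 1.33 to 6.49 CPM in KO mice), and exons between the lox sites could not be read apart from the others. WT replicate 2 stood apart from the other WT mice in several of the genes below, as did KO replicates 7, 8 and 9 from replicates 10, 11 and 12. The mouse names begin with numbers (29-222 for WT replicate 2, 29-217 or 29-226 for the other WT mice, 29-192 or 29-195 for replicates 7 to 9, and 29-222 or 29-225 for replicates 10 to 12), and what these numbers stand for is not given in the sources used here.

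The 5 genes lie at 4 loci of the mouse genome (mm10). Gja1 spans chr10:56377300-56390419 on the plus strand. Gjb2 (chr14:57098602-57104702) and Gjb6 (chr14:57123301-57133611) are neighbours on the minus strand of the same chromosome, 18598 bases apart. Gjb5 spans chr4:127354809-127358164 on the minus strand. Panx1 spans chr9:15005785-15045478 on the minus strand. No stretch of 75 bases of any of the 5 transcripts occurred in a transcript of another gene, and none of their exons overlapped another annotated gene.

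The promoters of the 5 genes (RefSeq, GRCm38.p6, from 250 bases before to 50 after the start of the gene) were searched on both strands. The first element was AGGTCA, a half-site of the elements that PPARγ and other nuclear receptors recognise, and the next its direct repeat with a single spacer base. The others were TGANTCA, the element of AP-1 factors, and GGGCGG, known as the GC box. Gjb5 and Gjb2 each held AGGTCA, Gja1 held TGANTCA, and Gjb2 also held GGGCGG, in 2 places. For each gene and element 1 window with a match is shown, so that the letters can be read beside the values of these genes, with the match in capitals. The other GGGCGG match of Gjb2, read on the opposite strand from position -126 of the gene start, is not shown.
Gjb5, AGGTCA, chr4:127358339-127358368, minus strand: gttgggggtgaaAGGTCAaagtgtaggggg
Gjb2, AGGTCA read on the opposite strand, chr14:57104876-57104905, minus strand: tggggtggggagTGACCTaggctccaggag
Gja1, TGANTCA, chr10:56377270-56377299, plus strand: ctccttccagtTGAGTCAgtggcttgaaac
Gjb2, GGGCGG, chr14:57104896-57104925, minus strand: gggggtggggtgGGGCGGagtggggtgggg
Counted from the start of the gene, the AGGTCA match begins at position -191 in Gjb2 and 1 base further upstream in Gjb5, and the TGANTCA match begins at -19 in Gja1. Of 32851 promoters searched in the same way, 16.3% held AGGTCA, 7.81% held TGANTCA and 35.7% held GGGCGG. The direct repeat, searched only as exact copies of AGGTCA, was present in 0.0396% and in none of the 5 genes. Repeats with a changed base in either copy were not searched, so their absence is not shown. No searched element was found in the windows of Gjb6 and Panx1. These matches describe letters in a window and were not measured as bound sites.

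Gjb2 was the only one of the 5 genes that passed both criteria for an altered gene, a log2 fold change whose size reached 0.6 and an adjusted p under 0.05 (edgeR quasi-likelihood test, Benjamini-Hochberg adjustment over all genes). Of all genes tested, 10.3% were altered, with 5.19% of all genes raised and 5.08% lowered in KO mice. The CPM of Gjb2 in WT replicates 1 to 6 was 18.5, 99.6, 31.6, 14.1, 27.3 and 39.0. In KO replicates 7 to 12 it was 158, 213, 152, 58.2, 68.7 and 56.9. Each KO mouse thus lay above 5 of the 6 WT mice, and WT replicate 2 lay between replicates 7 to 9 and replicates 10 to 12. Gjb2 was 3.07-fold higher in KO mice (log2 fold change 1.62 ± 0.49 SE, 95% interval 0.56 to 2.68, adjusted p = 0.0422 by edgeR, n = 6 per group), and mean values were 38.3 ± 31.3 CPM (SD) in WT and 118 ± 65.6 CPM in KO mice. With all mice the adjusted p was 0.00868 by the likelihood ratio test and 0.00357 by DESeq2, which called 11.8% and 12.3% of all genes. Fits on fewer mice or with covariates used the quasi-likelihood test only.

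The call for Gjb2 depended on which mice entered. When WT replicate 2 was left out its log2 fold change was 2.16 (adjusted p = 0.00325 by edgeR, with 15.5% of all genes altered), and without replicates 10 to 12 it was 2.18 (adjusted p = 0.0275, with 10.1% altered). Without replicates 7 to 9 it was 0.64 and not called (adjusted p = 0.529, with 3.85% altered), while replicates 10 to 12 against the 5 WT mice other than replicate 2 gave 1.22 (adjusted p = 0.0287, with 6.96% altered). Replicates 10 to 12 alone were thus called only against the WT mice other than replicate 2, and the difference between the sets of KO mice was not tested. Leaving out any 1 of the other 5 WT mice or of replicates 7, 8 and 9 also ended the call, at log2 fold changes of 1.34 to 1.62 and adjusted p of 0.0766 to 0.0983 (edgeR). Over all 26 alternatives Gjb2 kept its call in 13.

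**Figure D1:**
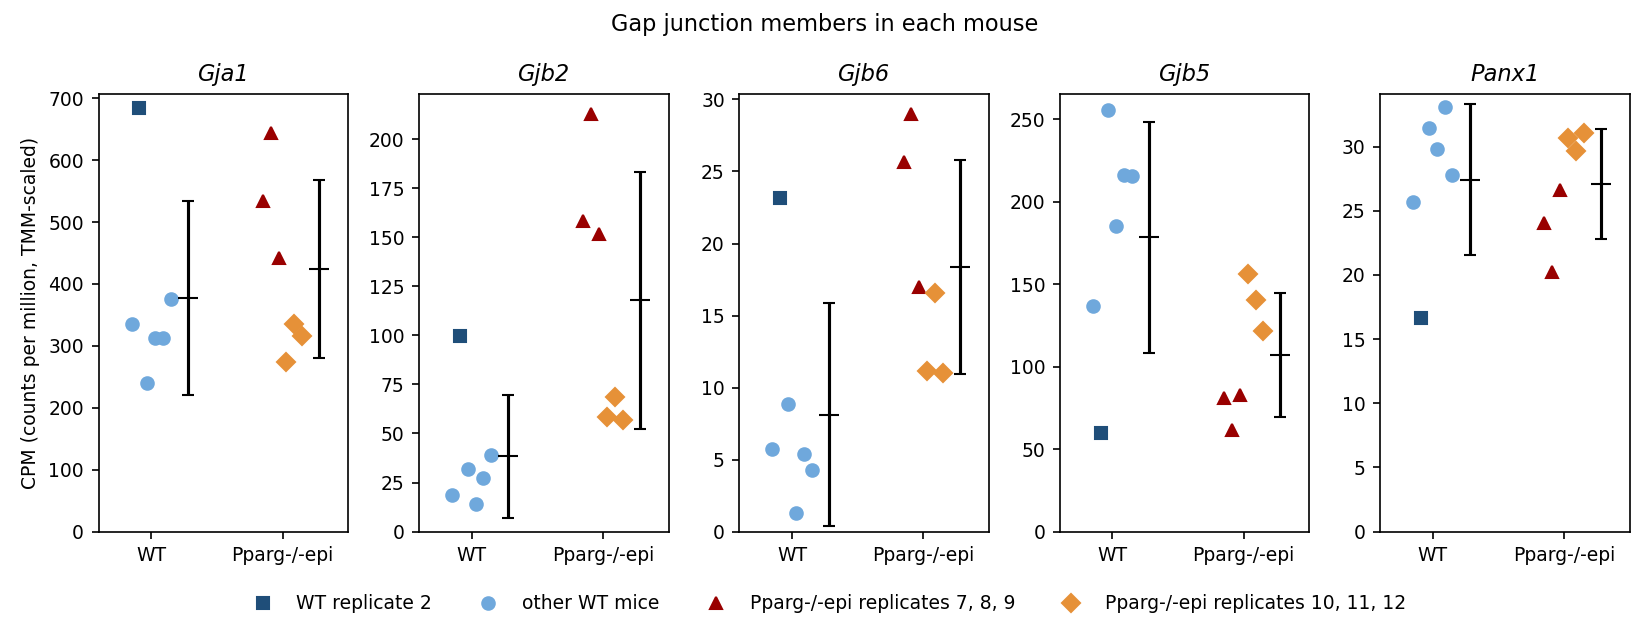
CPM of Gja1, Gjb2, Gjb6, Gjb5 and Panx1 in each mouse (y axes start at 0), with the mean and SD of the 6 mice of each genotype at the right of the points (Pparg-/-epi on the axis is KO). WT replicate 2 (square) and KO replicates 7 to 9 (triangles) are high in Gja1 and Gjb2 and low in Gjb5, and replicates 10 to 12 (diamonds) are nearer the other WT mice in Gja1 and Panx1.

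Gjb6, the neighbour of Gjb2, had a similar pattern over the mice, at lower counts. Its CPM in WT replicates 1 to 6 was 5.75, 23.1, 8.84, 1.28, 5.37 and 4.28, from 19 to 436 counts. In KO replicates 7 to 12 it was 25.6, 29.0, 17.0, 11.1, 16.5 and 11.0, from 128 to 493 counts. Each of the 6 KO mice exceeded the 5 WT mice other than replicate 2. With all mice the log2 fold change of 1.18 ± 0.53 (SE, 95% interval 0.04 to 2.31) did not pass the test (adjusted p = 0.155 by edgeR). Without WT replicate 2 it was 1.85 (adjusted p = 0.00804 by edgeR), so that this mouse decided the call. The ratio of Gjb2 to Gjb6 in RPKM (CPM divided by exon length in kilobases, a level per length) was 5.54 ± 2.96 (SD) in WT and 5.64 ± 1.58 in KO mice, a difference far below the spread between mice.

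Gja1, the connexin expressed most widely in the body and found through much of the living epidermis, did not separate the genotypes. Its CPM in WT replicates 1 to 6 was 336, 684, 240, 312, 313 and 376. In KO replicates 7 to 12 it was 534, 645, 441, 274, 335 and 316. The groups overlapped, the highest value of all being that of WT replicate 2, and replicates 10 to 12 lay within the range of the other 5 WT mice. The log2 fold change was 0.17 ± 0.27 (SE), with a 95% interval of -0.41 to 0.75 that extends past 0.6 upward (adjusted p = 0.725 by edgeR). Its sign turned without replicates 7 to 9 (-0.32) and with RIN as a covariate (-0.03).

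Gjb5, a connexin of differentiating keratinocytes, ran the other way. Its CPM in WT replicates 1 to 6 was 137, 60.0, 256, 185, 216 and 216. In KO replicates 7 to 12 it was 80.7, 61.7, 82.7, 156, 140 and 121. WT replicate 2 had the lowest value of all mice, and replicates 7 to 9 lay below the other 8. The log2 fold change of -0.73 ± 0.32 (SE, 95% interval -1.42 to -0.05) was not significant after adjustment (adjusted p = 0.140 by edgeR). It passed the test only without WT replicate 2, at -0.93 (adjusted p = 0.0152), and turned to 0.13 when WT replicates 3 to 6 were left out.

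Panx1 had nearly equal levels in both genotypes. Its CPM in WT replicates 1 to 6 was 25.7, 16.7, 31.4, 29.9, 33.1 and 27.8. In KO replicates 7 to 12 it was 24.1, 20.3, 26.6, 30.7, 29.7 and 31.1. WT replicate 2 and KO replicate 8 were the lowest of their groups here, as in Gjb5. The log2 fold change was -0.02 ± 0.16 (SE), and its 95% interval of -0.37 to 0.33 excludes a change of 0.6 in either direction (adjusted p = 0.958 by edgeR).

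Of 5 members 1 was altered, and 3 had an unadjusted p below 0.05, which 29.5% of all genes had. The median log2 fold change of the 5 was 0.17. No difference of the genotype effect by sex was detected in any of them, the adjusted p of the interaction lying between 0.962 and 0.995 (edgeR). Its SE was 0.84 for Gjb2, 1.08 for Gjb6 and 0.63 for Gjb5 in log2 units, so that large differences could be missed. The male KO mice were replicates 10 and 12 and replicates 7 to 9 were all female, so sex and these sets can hardly be told apart. Among all genes 0 had an adjusted interaction p below 0.05 while 5.10% had an unadjusted p below 0.05.

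**Figure D2:**
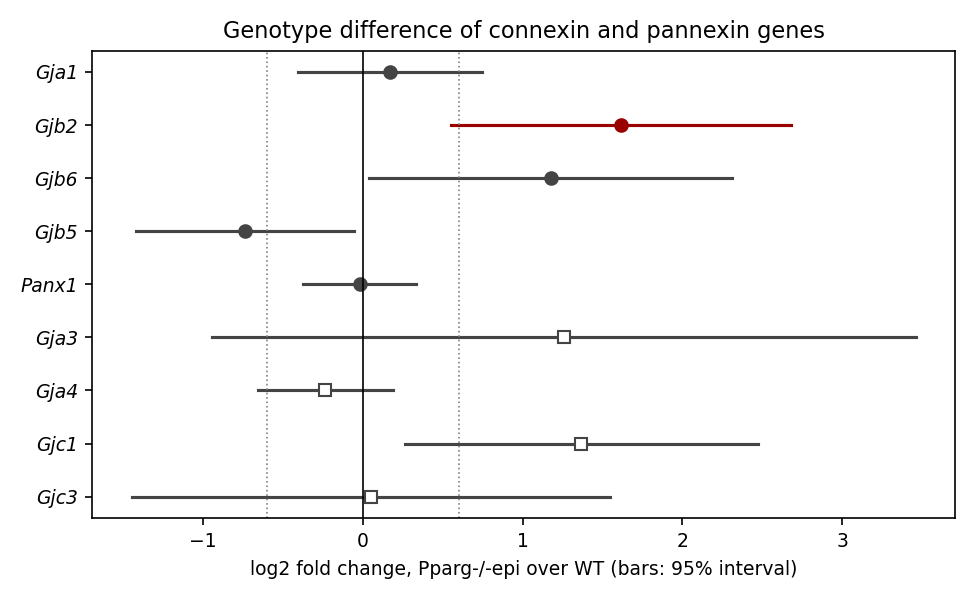
Log2 fold change (KO over WT, x axis) with its 95% interval for the 5 genes (circles) and 4 further connexin genes of the table (open squares). Dotted lines mark a change of 0.6 in either direction. Gjb2, in red, was the only gene altered, and Panx1 has the narrowest interval, which lies within the dotted lines.

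Compared per length, Gja1 was at 121 ± 50.5 RPKM (SD) in WT and 137 ± 46.3 in KO mice, and Gjb5 at 105 ± 41.1 and 62.9 ± 22.1. Gjb2 was at 16.0 ± 13.0 and 49 ± 27.3, Panx1 at 13.2 ± 2.84 and 13.0 ± 2.06, and Gjb6 at 3.69 ± 3.53 and 8.36 ± 3.39. Neighbours in this order were compared within mice by exact two-sided sign-flip permutation tests (8 comparisons, n = 6 per group, smallest possible p = 0.03125). Gjb2 exceeded Panx1 in 6 of 6 KO mice (exact p = 0.03125, adjusted 0.125) but in 2 of 6 WT mice (exact p = 1). Gja1 exceeded Gjb5 in 5 of 6 KO mice (exact p = 0.0625, adjusted 0.125) and in 2 of 6 WT mice (exact p = 0.8125). Gjb5 exceeded Gjb2 in 5 of 6 WT mice and in 3 of 6 KO mice (exact p = 0.0625 and 0.469), and Panx1 exceeded Gjb6 in 5 of 6 WT mice and in 4 of 6 KO mice (exact p = 0.0625 and 0.125). No neighbours differed after adjustment over the 8 comparisons, with 6 mice in each.

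Of the further connexins, Gja3, Gja4, Gjc1 and Gjc3 are reported here, which are best known from the lens, vessels, heart and myelinating cells. They had at most 93 counts in any mouse. Gjc1 was at 1.34 ± 1.09 CPM (SD) in WT and 3.53 ± 1.60 in KO mice (log2 fold change 1.37, adjusted p = 0.0915 by edgeR). It passed the test without WT replicate 2 (1.76, adjusted p = 0.0243), when RIN entered the model (1.11, adjusted p = 0.0434) and by DESeq2 (1.38, adjusted p = 0.0446). Gja3 (log2 fold change 1.26, adjusted p = 0.453), Gja4 (-0.23, 0.478) and Gjc3 (0.05, 0.975) did not pass it, and Gja3 and Gjc3 were at 0 counts in at least 1 WT mouse. Thus 0 of the 4 were altered by the quasi-likelihood test, 1 had an unadjusted p below 0.05, and 0 were altered by the likelihood ratio test and 1 by DESeq2, which called 11.8% and 12.3% of all genes.

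Because each mouse yields a level per length for every gene, the make-up of the transcripts of the 5 genes could be compared between mice. Their summed RPKM was 259 ± 36.7 (SD) in WT and 270 ± 54.0 in KO mice. Gjb5 made 38.0 to 57.8% of the sum in WT mice other than replicate 2 and 32.9 to 40.9% in KO replicates 10 to 12. In WT replicate 2 it made 11.2%, and in replicates 7 to 9 it made 10.2 to 17.7%. These 4 mice had more Gja1 instead, 69.8% in WT replicate 2 and 51.8 to 58.4% in replicates 7 to 9, against 29.8 to 51.2% in the other WT mice and 39.4 to 47% in replicates 10 to 12. Gjb2 and Gjb6 together made 2.80 to 6.62% in WT mice other than replicate 2, 13.1 to 15.0% in replicates 10 to 12, 16.5% in WT replicate 2 and 25.1 to 28.6% in replicates 7 to 9. Panx1 made 2.54 to 6.91% in all mice. The ratio of Gja1 to Gjb2 in RPKM was 5.32 to 17.1 in WT and 2.25 to 4.30 in KO mice. This ratio was chosen after its values were seen, so that its lack of overlap is not a test. WT replicate 2 thus resembled replicates 7 to 9 in its low share of Gjb5. Like every WT mouse, it had less Gjb2 for its share of Gja1 than any KO mouse, in the ratio so chosen.

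**Figure D3:**
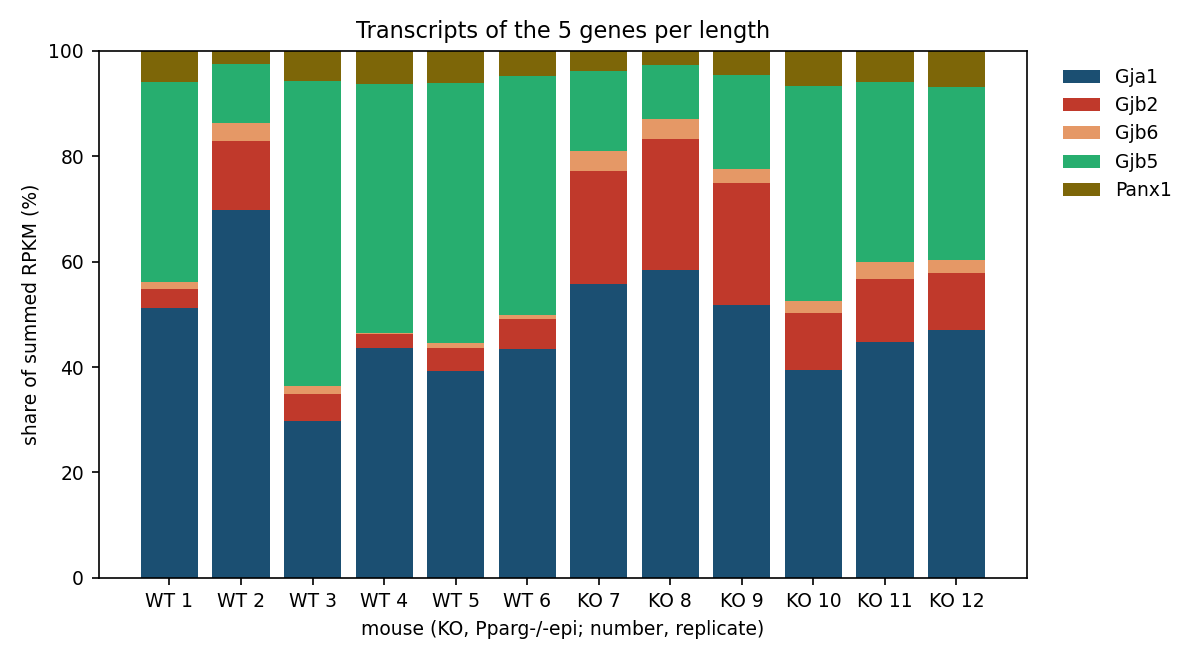
Share of each of the 5 genes in their summed RPKM (y axis, percent), 1 bar per mouse, with KO for Pparg-/-epi. The green part (Gjb5) makes 11.2% in WT replicate 2 and 10.2 to 17.7% in replicates 7 to 9, against 32.9 to 57.8% in the other mice.

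Some of the mice that stood apart also lay at the ends of the range in cell type markers and RNA quality. The summed CPM of 9 keratins of the hair shaft and inner root sheath was 912 in WT replicate 2, 716, 2402 and 234 in replicates 7 to 9, 2.11 to 346 in the other WT mice, and 85.2 to 243 in replicates 10 to 12. None of these 9 genes was altered between the genotypes, and 5 of them (Krt25, Krt33b, Krt35, Krt85 and Krt86) were at 0 in at least 1 mouse. The sum of replicate 9 lay within the range of replicates 10 to 12. The summed CPM of 5 spinous markers was 13371 in WT replicate 2 against 31866 to 38916 in the other WT mice, 35033, 20974 and 28801 in replicates 7 to 9, and 34296 to 42331 in replicates 10 to 12, with none of the 5 altered. Replicate 7 thus lay within the range of the other WT mice. That of 5 granular markers, of which 3 were altered and higher, was 4585 in WT replicate 2, 6152 to 7402 in the other WT mice, 7695, 4645 and 5806 in replicates 7 to 9, and 8782 to 8865 in replicates 10 to 12. That of 7 sebocyte markers, of which 5 were altered and lower and 3 (Awat1, Fa2h and Scd3) were at 0 in at least 1 mouse, was 1040 in WT replicate 2, 25.1 to 602 in the other WT mice and 20.3 to 58.6 in KO mice. That of 4 melanocyte markers, none altered, was 3.52 to 38.0 in WT (35.1 in replicate 2), 45.3 to 166 in replicates 7 to 9 and 10.5 to 12.4 in replicates 10 to 12. That of 5 endothelial markers, of which 1 was altered and higher, was 4.28 to 99.1 in WT (99.1 in replicate 2), 117 to 151 in replicates 7 to 9 and 23.5 to 52.1 in replicates 10 to 12. Over all genes 10.3% were altered, 5.19% being higher and 5.08% lower in KO mice. Among the other lists summed, WT replicate 2 was the lowest mouse in basal markers (7576) and the highest in immune (863) and adipocyte markers (111). It was at neither end in fibroblast markers (10471, with 1014 to 34533 in WT) or skeletal muscle markers (36.6, with 10.0 to 9059 in WT). RIN was 8.6 in WT replicate 2 and 8.6, 8.5 and 7.7 in replicates 7 to 9, all of them female, against 5.9 to 7.4 in the other WT mice and 5.7 to 7.7 in replicates 10 to 12. The part of these differences in the values of the connexins was not tested. In bulk tissue fewer cells of a type and less RNA per cell cannot be told apart.

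With RIN as a covariate Gjb2 was again altered, at a log2 fold change of 1.28 (adjusted p = 0.0476 by edgeR, with 9.71% of all genes altered), and with sex as a covariate likewise, at 1.39 (adjusted p = 0.0386, with 10.0% altered). With RIN and without WT replicate 2, Gjb2 and Gjb6 were altered, as were 9.48% of all genes. Scaled to total counts, or with age as a covariate, none of the 5 genes was altered, against 9.59% and 9.99% of all genes. Among the 7 female mice the log2 fold change was 1.54, without an adjusted p below 0.05 (0.195), where 4.48% of all genes were altered. For Gjb5 the log2 fold change moved from -0.73 to -0.31 with RIN as a covariate. Of the wound-type keratins Krt6a, Krt6b, Krt16 and Krt17, 3 were altered and higher, against 5.19% of all genes. Their summed CPM was 457 to 1750 in WT and 2858 to 5410 in KO mice. Of single genes, 3.95% were higher without overlap, a share that does not apply to a sum over several genes. In this sum too WT replicate 2 had the highest value among WT mice.

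**Figure D4:**
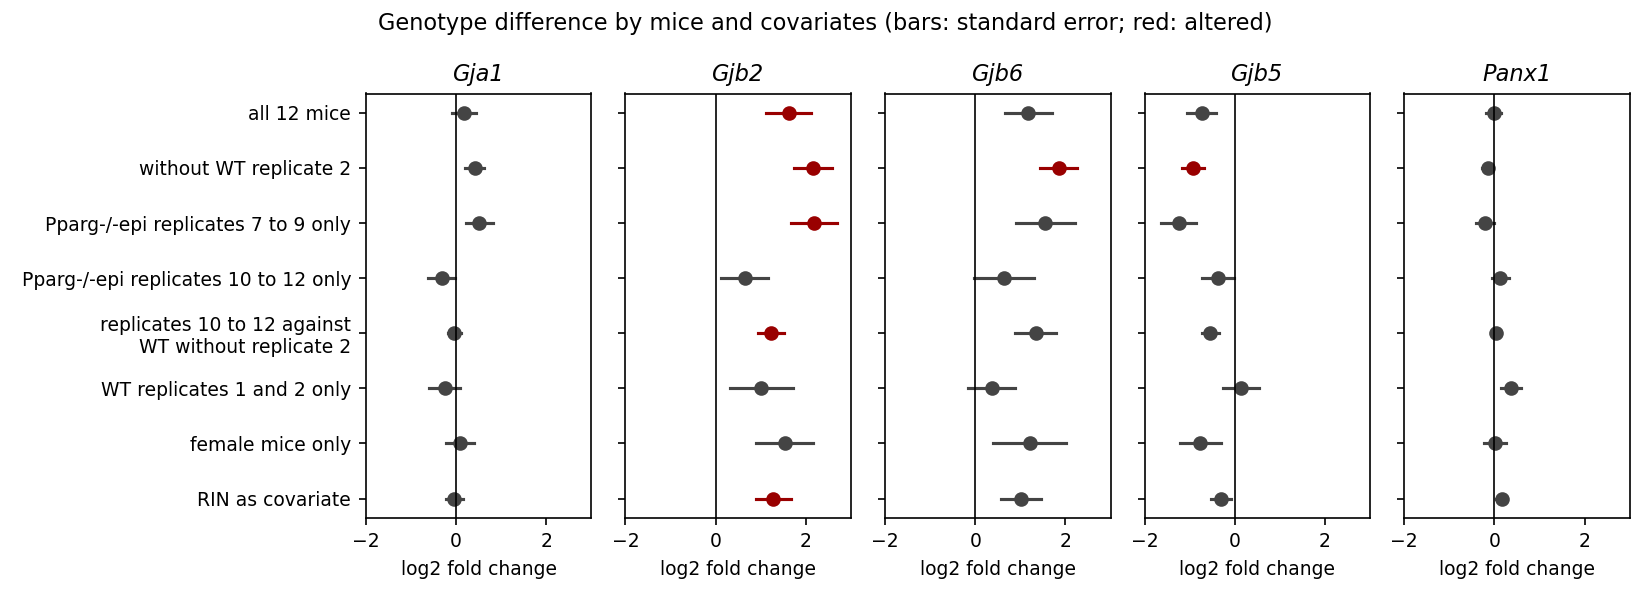
Log2 fold change (KO over WT, x axis) with its standard error for the 5 genes when mice are left out, or RIN is added as a covariate. Red marks a gene called altered. Gjb2 stays above 0 in every fit and is called in 5 of the 8 shown, and in 13 of all 26 alternatives. Gjb6 and Gjb5 are called without WT replicate 2, and Gja1 and Panx1 are called in none.

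**Figure D5:**
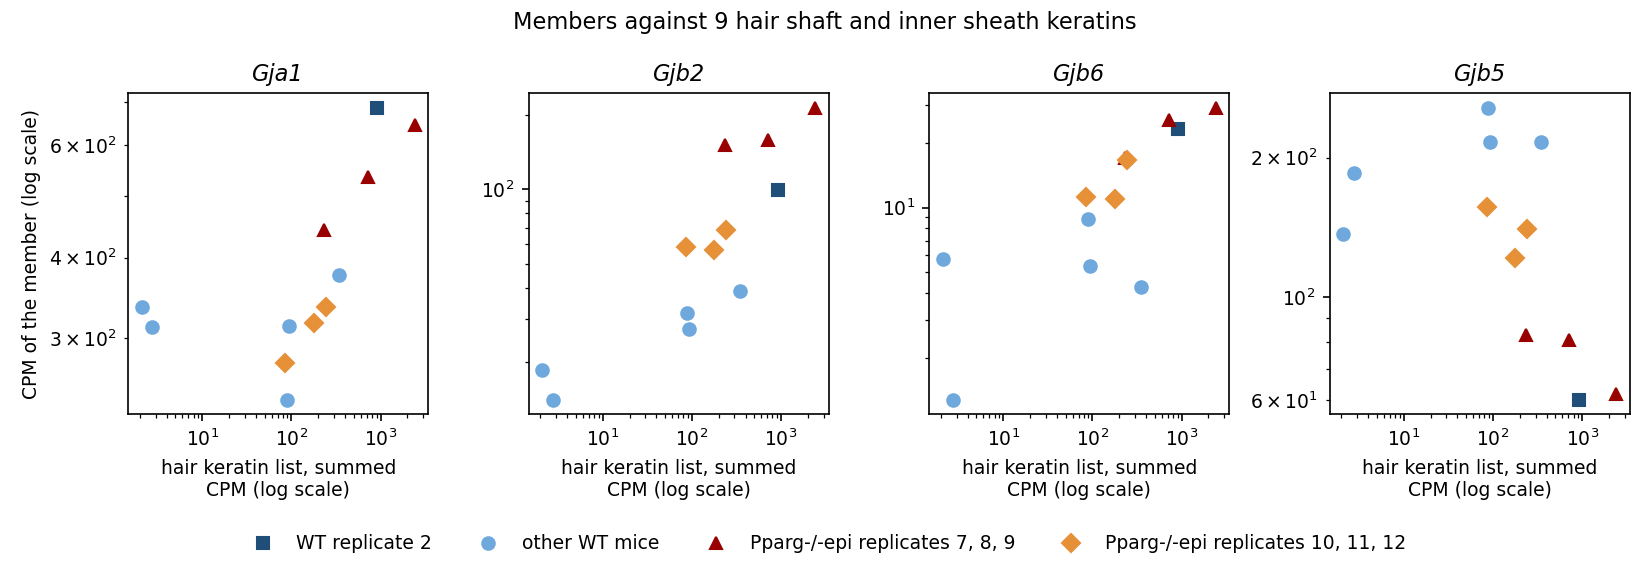
CPM of Gja1, Gjb2, Gjb6 and Gjb5 (y axes, log scale) against the summed CPM of 9 keratins of the hair shaft and inner root sheath (x axes, log scale), 1 point per mouse. The hair keratin sums run from 2.11 to 2402, and the 2 mice with the highest sums, KO replicate 8 and WT replicate 2, are also the 2 highest in Gja1 and the 2 lowest in Gjb5.

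For each of the 5 genes the genes of the table with the most similar pattern were sought, by Pearson's r of log2 CPM over the 12 mice after subtracting the mean of each genotype, as a description. The same 12 mice underlie every r, and without WT replicate 2 the r of the 15 genes below lay between 0.83 and 0.98. Gja1 was most like AU018091, Evl and Lrrc75b (r = 0.97 each). Gjb2 was most like 6330416G13Rik (0.96), Adgrg1 (0.95) and Zmynd15 (0.94), and Gjb6 was most like Aqp7 (0.94), Alas2 (0.91) and Pitpnm3 (0.91). Gjb5 was most like Cdkn1a, Hsdl1 and P3h4 (0.99 each), and Panx1 was most like Rhou (0.98), Emc1 (0.97) and Adipor1 (0.97). Of these 15 genes, Adgrg1, Zmynd15 and Pitpnm3 were altered and higher in KO mice, and Hsdl1 and P3h4 were altered and lower. Of all genes, 5.19% were altered and higher and 5.08% altered and lower.

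Connexins are carried, anchored and removed by partner proteins, and of 28 listed symbols of such partners, kinases and turnover genes 27 were in the table. By the quasi-likelihood test 0 of the 27 were altered (8 with an unadjusted p below 0.05, and 0 altered by either the likelihood ratio test or DESeq2), with a median log2 fold change of 0.07. Of all genes, 10.3% were altered by the quasi-likelihood test and 29.5% had an unadjusted p below 0.05. Tjp1, the scaffold that binds the tail of the Gja1 product, was at 138 ± 34.3 CPM (SD) in WT and 164 ± 39.1 in KO mice (log2 fold change 0.25, adjusted p = 0.407 by edgeR). Cdh1, the cadherin of adherens junctions, was at 838 ± 112 and 874 ± 66.1 CPM (0.06, adjusted p = 0.768).

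ATP that leaves through Panx1 or connexin channels acts on P2 receptors, is cut to adenosine by ectonucleotidases and then acts on adenosine receptors. Of 29 listed genes of this route that are reported here 26 were in the table, of which 2 were altered and higher and 4 altered and lower (median log2 fold change 0.12), against the 5.19% and 5.08% of all genes. Nt5e, which makes adenosine from AMP outside the cell, fell most among the lowered, from 81.5 ± 12.7 CPM (SD) in WT to 25.0 ± 4.10 in KO mice (log2 fold change -1.70 ± 0.13 SE, adjusted p = 3.32e-05 by edgeR). Its groups did not overlap, which 3.95% of all genes showed in this direction and 3.95% in the other, and it was altered in all 26 alternatives. Ada, which removes adenosine, rose from 1.41 ± 0.557 to 4.81 ± 0.921 CPM, without overlap (log2 fold change 1.75 ± 0.30, adjusted p = 0.00229). Entpd2, an ectonucleotidase that acts on ATP, fell from 18.2 ± 3.64 to 11.5 ± 1.34 CPM, also without overlap (log2 fold change -0.66, adjusted p = 0.00834).

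Among receptors, P2rx2 fell from 38.0 ± 13.8 to 15.9 ± 5.57 CPM (SD) (log2 fold change -1.26, adjusted p = 0.00993 by edgeR), and the adenosine receptor Adora2b from 37.7 ± 11.5 to 21.1 ± 5.17 (-0.84, 0.0289). P2rx3, which with P2rx2 builds ATP-gated ion channels of sensory neurons, was higher at very low levels, 2.94 ± 0.856 against 0.695 ± 0.512 CPM (2.03, 0.0108). P2rx7 (log2 fold change 0.50, adjusted p = 0.432), P2ry2 (0.91, 0.484), and Entpd1 (0.40, 0.653) did not pass the test. Over 26 alternatives the call was lost in 11 for Adora2b, in 4 each for P2rx2, P2rx3 and Entpd2, and in 1 for Ada. Without WT replicates 3 to 6, P2rx2 was at a log2 fold change of -0.58 (adjusted p = 0.390 by edgeR) and P2rx3 at 1.25 (adjusted p = 0.178). In the same fit Adora2b was at -0.18 (adjusted p = 0.759).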

How the data were processed

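RNA from scraped frozen epidermis of 12 mice was sequenced. The authors aligned reads with STAR 2.5.2b to mm10, left out reads of low quality or with several map positions, and counted the rest per gene with featureCounts (Subread 1.5.1), and the deposited table holds these raw counts. Blank rows (2800) were dropped, and every one of the 14533 genes exceeded 0.5 CPM in at least 6 libraries. Library columns were matched to mice by the library numbers in the labels. For KO (Pparg-/-epi) replicates 11 and 12, which have no mouse name in the labels, names came from the study's sample sheet, whose sex and RIN match the labels.

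Counts were compared with edgeR 4.0.16 (R 4.3.3) by the quasi-likelihood test with TMM scaling and genotype as the only term. The likelihood ratio test used by the study, DESeq2 1.42.0, other scalings, covariates (sex, age, RIN) and subsets of mice were alternatives, of which those without replicates 10 to 12, without WT replicate 2 and replicates 7 to 9, and with RIN but without WT replicate 2 were chosen after seeing the data. Scripts were tested on simulated data. CPM use TMM library sizes, RPKM the exon length in the table. Likeness used log2 CPM with a prior count of 2. No 2 libraries of the same genotype agreed within sampling noise, and p-values measure the spread between single mice.

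The genes, lists and tests were chosen with earlier results of these data known. Named were the 5 genes, further connexins in the table, altered genes of both pathway lists (up to 6 each), 6 genes fixed by name, Pparg and, for each of the 5, the 3 most similar genes. Some genes the rule names are not reported here. Low counts limit Gja3, Gjc1 and Gjc3 most, 1 count being 0.0531 to 0.0988 CPM. Figures were drawn with matplotlib 3.10.9.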

Additional observations from a re-analysis of the deposited data

Results flagged for a closer look

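In 18 groups (9 genes in both genotypes), 5 had a mouse whose gap to its neighbour took more of the group's whole range than Dixon's critical value for 6 samples. Chance gives such a separation in about 1 in 20 groups of 6 values from a normal distribution. CPM need not be normal and the genes share the same mice, so that share cannot be set against the 5 groups. WT replicate 2 was the mouse in 3 of them, at 684 CPM for Gja1 (next highest WT mouse 376), 99.6 CPM for Gjb2 (next 39.0) and 23.1 CPM for Gjb6 (next 8.84). Pparg-/-epi replicate 8 was the mouse in the other two, at 3.40 CPM for Gja3 (next 0.998) and 3.88 CPM for Gja4 (next 3.09), both from low counts. Replicate 8 also had the highest hair keratin sum of all mice, and that of WT replicate 2 was the second highest.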

How the results depend on the processing

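The paper describes the WT mice as sibling controls, but litters are not given in the sources used here, so no paired analysis was made. Of the numbers that begin the mouse names, only 29-222 occurs in both genotypes, in WT replicate 2 and Pparg-/-epi replicate 10. These numbers and genotype thus can hardly be told apart. Without the 4 WT mice named 29-226, log2 fold changes were 1.01 for Gjb2 (not altered), -0.25 for Gja1, 0.13 for Gjb5, 0.37 for Panx1, -0.88 for Gjc3, -0.078 for Tjp1, -0.38 for P2rx7 and -0.50 for Entpd1, with 0 of the 5 genes and 389 of all genes altered. Without Pparg-/-epi replicates 7 to 9 they were 0.64 for Gjb2 (not altered), -0.32 for Gja1, 0.13 for Panx1, -1.25 for Gjc3, -0.11 for Tjp1, and -0.20 for Entpd1, with 0 and 559 altered. Replicates 10 to 12 against WT mice other than replicate 2 gave -0.041 for Gja1, 0.037 for Panx1, -0.83 for Gjc3, and -0.033 for Cdh1. RIN as a covariate gave -0.033 for Gja1, 0.16 for Panx1 and -0.53 for Gjc3, and without WT replicate 2 also 1.68 for Gjb6 (altered), 0.010 for Panx1 and -0.64 for Gjc3, with 2 of the 5 altered. Sex as a covariate gave 0.029 for Panx1 and -0.10 for Gjc3. Female mice alone gave 1.54 for Gjb2 (not altered) and 0.015 for Panx1, with 0 and 651 altered. Gjb2 and the count of 5 also lost the call with total counts (1.61, 0 altered, adjusted p = 0.0619 by edgeR) and with age as a covariate (1.57, 0 altered, adjusted p = 0.0793). Leaving out 1 mouse at a time gave -0.0074 to 0.41 for Gja1, 1.34 to 2.16 for Gjb2, -0.93 to -0.60 for Gjb5, 0.95 to 1.85 for Gjb6, -0.14 to 0.043 for Panx1, -0.29 to 0.45 for Gjc3 and -0.017 to 0.091 for Cdh1. Between 0 and 3 of the 5 genes were then altered (3 without WT replicate 2), and 1116 to 2249 of all genes. The causes were not tested, and smaller sets of mice give less power by construction.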
